A study of Mus musculus with 12 samples.

Results

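The mesothelium markers are 7 genes, Msln, Upk3b, Upk1b, Lrrn4, Wt1, Gpm6a and Bnc1, taken by name from a table of 35275 genes, and they were followed through 12 libraries of mouse ileum. Total RNA was sequenced from whole ileum of C57BL/6 pups killed at postnatal day 14. Stressed pups were born to dams held in a ventilated tube for 2 h daily between gestational days 7 and 19, and control pups to dams left in their home cages, so the treatment was given to the dam and not to the pup. Each of 3 stressed and 3 control dams gave 1 male and 1 female, which made 3 stressed males, 3 control males, 3 stressed females and 3 control females. A library is called here by its group and the number of its dam, so that stressed male 3 and stressed female 3 are littermates. All 7 genes were detected in every library and passed the filter on low counts.

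The mesothelium is the single sheet of flat cells that covers the outer (serosal) face of the gut, the mesentery and the wall of the abdominal cavity. It forms a slippery surface, comes from mesoderm, and keeps features of both epithelial and mesenchymal cells. In whole ileum it is a thin layer among far more epithelium, muscle and immune cells, so its transcripts are scarce in bulk RNA. Of the 7 markers, mesothelin (Msln) is a surface glycoprotein anchored by a lipid tail. Upk3b and Upk1b belong to the uroplakin group of membrane proteins, best known from the bladder lining, Upk1b being a tetraspanin. Lrrn4 is a membrane protein with leucine-rich repeats, and Gpm6a is a membrane glycoprotein better known from neurons. Wt1 is a zinc finger transcription factor needed in mesothelium during development, and Bnc1 is a zinc finger protein of epithelial and mesothelial cells.

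The genes lie on 6 chromosomes, and all were annotated as protein coding in the deposited table (GRCm38/mm10). Msln (ENSMUSG00000063011) spans chr17:25748614-25754327 on the minus strand, Upk3b (ENSMUSG00000042985) chr5:136038496-136045303 on the plus strand and Upk1b (ENSMUSG00000049436) chr16:38773184-38800203 on the minus strand. Lrrn4 (ENSMUSG00000043110) spans chr2:132868305-132880891 on the minus strand and Wt1 (ENSMUSG00000016458) chr2:105126529-105173616 on the plus strand. Gpm6a (ENSMUSG00000031517) spans chr8:54954728-55060877 on the plus strand and Bnc1 (ENSMUSG00000025105) chr7:81966672-81992299 on the minus strand. Reads were summed over the gene. In GENCODE M21 the exons of Bnc1 share 98 bases (2.11% of its exonic length) with 4833418N17Rik on the opposite strand, and the labels do not state whether counting used strand. The other markers shared no exonic base with another gene.

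Upk3b, Lrrn4 and Bnc1 were the markers whose levels followed the remaining markers most closely over the 12 libraries, so the 250 bases before their starts are shown. They come from RefSeq (GRCm38.p6), run 5′ to 3′ on the strand of the gene and end next to the annotated start, which for Lrrn4 lies 29 bases inside the deposited gene. The windows are chr5:136038246-136038495 on the plus strand for Upk3b, chr2:132880863-132881112 on the minus strand for Lrrn4 and chr7:81992300-81992549 on the minus strand for Bnc1. Capitals mark matches to the motifs searched on both strands, CATTCC (the core bound by TEAD factors) in Upk3b and Lrrn4 and GGGCGG (a GC box) in Bnc1.
Upk3b: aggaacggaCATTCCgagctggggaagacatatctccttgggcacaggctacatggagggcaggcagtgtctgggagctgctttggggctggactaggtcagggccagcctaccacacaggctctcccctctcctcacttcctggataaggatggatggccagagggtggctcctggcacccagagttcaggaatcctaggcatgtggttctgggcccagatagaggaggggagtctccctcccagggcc
Lrrn4: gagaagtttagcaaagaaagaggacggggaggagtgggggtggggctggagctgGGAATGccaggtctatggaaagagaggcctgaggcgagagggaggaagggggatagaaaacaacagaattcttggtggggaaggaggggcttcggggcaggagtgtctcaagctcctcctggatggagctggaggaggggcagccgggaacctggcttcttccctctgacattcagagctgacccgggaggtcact
Bnc1: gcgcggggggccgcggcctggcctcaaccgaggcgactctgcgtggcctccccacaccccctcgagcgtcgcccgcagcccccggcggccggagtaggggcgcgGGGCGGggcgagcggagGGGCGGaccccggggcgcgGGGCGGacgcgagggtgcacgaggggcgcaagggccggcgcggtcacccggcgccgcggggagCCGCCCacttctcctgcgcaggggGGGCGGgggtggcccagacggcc
CATTCC starts at base -241 in Upk3b and is read on the opposite strand from base -196 in Lrrn4, and 12.6% of 32851 RefSeq promoters of the same length hold it. The Bnc1 window holds 5 copies of GGGCGG, a motif found in 32.7% of these promoters. Its GC content was 83.6% with 39 CpG sites, against 60.8% for Upk3b, 59.2% for Lrrn4 and a median of 52.4% over all promoters. The letters GCGTGGGNG, bound by WT1 and EGR proteins, are in none of the 5 windows listed for the markers and in 1.65% of all, and TATAAA (12.4% of all) is in 1 of the 2 windows of Gpm6a. The other Gpm6a window holds CATTCC, read on the opposite strand from base -125, but its start lies 175294 bases from the deposited one. For neither Gpm6a window was the sequence that follows found in a GENCODE M21 transcript. Of the 7 markers, 4 had an entry in the promoter table, and Msln, Upk1b and Wt1 had none.

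Library totals ran from 16423523 to 22975526 counts, and the 7 markers together took between 210 and 2128 of them. Libraries stood apart in several genes that are not mesothelial. Both pups of control dam 3 carried Fabp1, a fatty acid binding protein of proximal small intestine, at 1404 CPM in the male and 168 CPM in the female, while the 10 libraries of other litters had 0.151 to 0.638 CPM (CPM, read counts scaled to library size, with TMM factors). Reads of Yam1 reached 14021 CPM in stressed male 1, 43126 CPM in stressed male 3 and 10032 CPM in control male 1, while control male 2 had the lowest value, 1678 CPM. The results below are given with and without these libraries where they moved a call.

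The 7 markers were low together in 3 of the 12 libraries, all male: stressed male 3, control male 1 and control male 2. These were the 3 lowest libraries, in any order, for 7 of 7 markers and for 87 of 16102 tested genes (0.54%). The 3 libraries were picked from the markers' own values and the markers vary together, so this share is a description and no test. Summed over the markers, the level was 63.2, 102 and 16.1 CPM in stressed males 1 to 3, against 11.3, 13.1 and 74.2 CPM in control males 1 to 3. It was 92.4, 84.0 and 53.8 CPM in stressed females 1 to 3, against 84.4, 82.6 and 78.1 CPM in control females 1 to 3. Low libraries thus occurred in both male groups and in no female group, and each was the littermate of a female with 53.8 CPM or more. In bulk tissue, fewer mesothelial cells and less RNA per cell cannot be told apart.

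**Figure D1:**
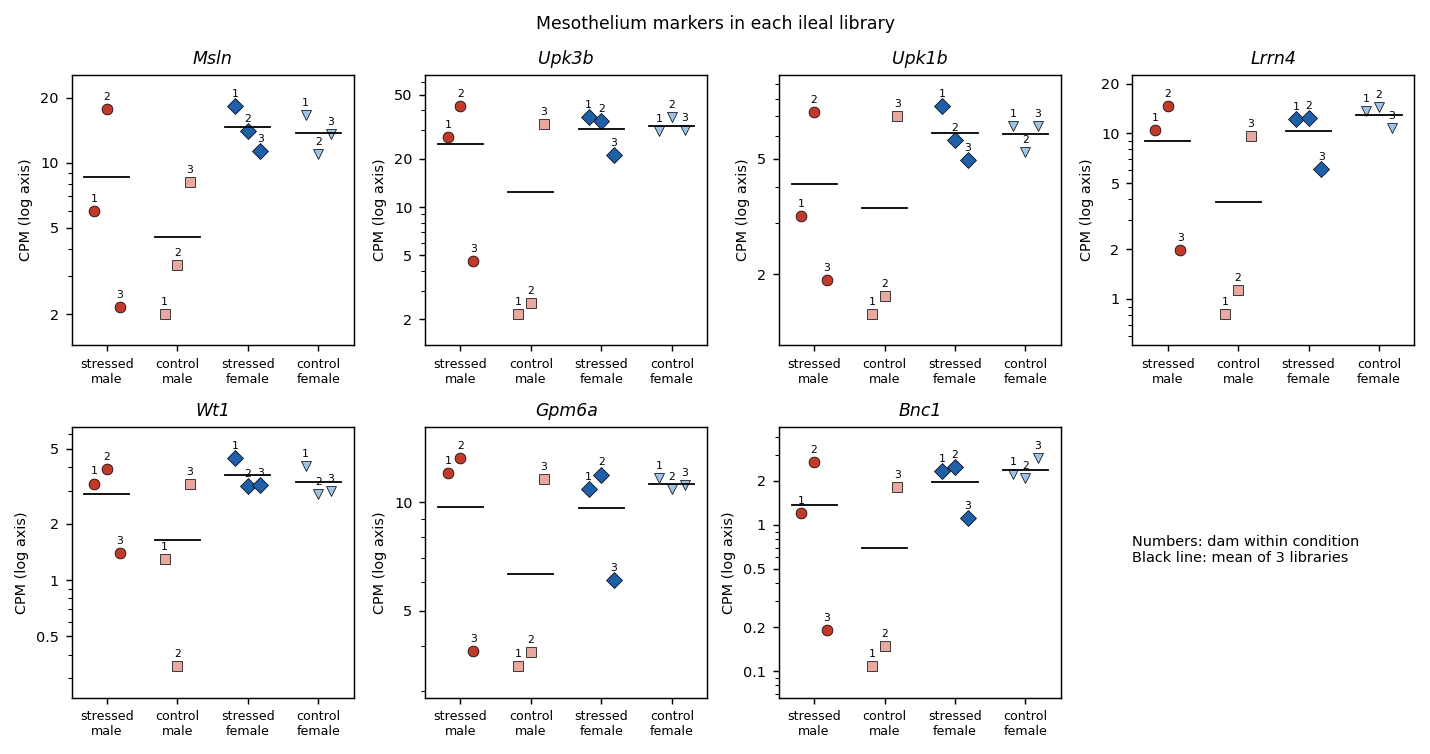
CPM (log axis) of the 7 mesothelium markers in each library, with stressed males, control males, stressed females and control females from left to right; numbers give the dam and black lines the mean of 3 libraries. In every panel stressed male 3 and control males 1 and 2 lie lowest, as for Upk3b with 4.64, 2.16 and 2.52 CPM against 21.02 CPM or more in all other libraries.

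Among the uroplakin genes, Upk3b was the most abundant marker. It had 27.1, 42.6 and 4.64 CPM in stressed males 1 to 3, against 2.16, 2.52 and 32.7 CPM in control males 1 to 3. It had 36.5, 34.1 and 21.02 CPM in stressed females, against 29.6, 36.2 and 30.3 CPM in control females. The values fell into separate ranges with nothing between 4.64 and 21.02 CPM, and the highest library had 19.7 times the level of the lowest. The low values rest on 73 counts in stressed male 3, 40 in control male 1 and 51 in control male 2, against 456 to 867 counts elsewhere. Upk1b, which pairs with uroplakin III proteins in bladder, had 3.17, 7.22 and 1.91 CPM in stressed males, against 1.46, 1.68 and 7.03 CPM in control males. In females it had 7.60, 5.77 and 4.93 CPM in stressed pups, against 6.46, 5.29 and 6.46 CPM in controls. The same 3 males were lowest, but stressed male 1 lay between them and the rest, and the whole spread was 5.21-fold.

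Msln showed 5.99, 17.7 and 2.16 CPM in stressed males 1 to 3, against 2.00, 3.36 and 8.20 CPM in control males 1 to 3. Stressed females had 18.4, 14.1 and 11.3 CPM, against 16.6, 10.9 and 13.6 CPM in control females. In Msln the males outside the 3 low libraries also lay apart, since stressed male 1 and control male 3 were below every female while stressed male 2 was within the female range. The highest library had 9.19 times the level of the lowest.

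Lrrn4 had 10.4, 14.7 and 1.97 CPM in stressed males, against 0.810, 1.14 and 9.63 CPM in control males. Stressed females had 12.2, 12.5 and 6.13 CPM, against 13.7, 14.3 and 10.8 CPM in control females. As for Upk3b the low libraries were well separated, with 1.97 CPM as their highest value and 6.13 CPM as the lowest elsewhere, and the whole range was 18.1-fold. Gpm6a varied least, 3.78-fold between its highest and lowest library. It had 12.03, 13.3 and 3.88 CPM in stressed males, against 3.51, 3.86 and 11.6 CPM in control males. Females had 10.9, 11.9 and 6.09 CPM when stressed, against 11.7, 10.9 and 11.2 CPM in controls, so that its lowest female exceeded the highest of the low males by 1.57-fold only.

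For the transcription factor Wt1, stressed males had 3.27, 3.93 and 1.40 CPM, against 1.30, 0.346 and 3.25 CPM in control males. Stressed females had 4.47, 3.17 and 3.23 CPM, against 4.07, 2.88 and 3.00 CPM in control females. Its lowest library was control male 2, with 7 counts (95% Poisson interval 2.81 to 14.4, counting error only), and outside the 3 low libraries Wt1 varied 1.55-fold, the narrowest range of the 7 markers there. Bnc1 had 1.21, 2.70 and 0.191 CPM in stressed males, against 0.108, 0.148 and 1.82 CPM in control males. Stressed females had 2.34, 2.47 and 1.11 CPM, against 2.22, 2.08 and 2.86 CPM in control females. In the low libraries Bnc1 was near the limit of counting, with 3 counts in stressed male 3 and in control male 2 (0.619 to 8.77 for each) and 2 counts in control male 1 (0.242 to 7.22), so no ratio of its highest to its lowest library is given.

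Spread differed between the sexes in every marker. The coefficient of variation over 6 libraries was between 58.8% and 104% in males, against 15.8% to 27.0% in females. Stressed female 3, the littermate of the low stressed male 3, was the lowest female for 5 of 7 markers. Its Upk3b, Upk1b, Lrrn4, Gpm6a and Bnc1 levels lay below those of every other female, and above those of the 3 low males. Stressed male 2 was the highest library for 3 markers and stressed female 1 for another 3.

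Levels of different genes were compared per length, as deposited FPKM. Upk3b had the highest median over the 12 libraries, 12.2 FPKM, followed by Msln with 5.40, Gpm6a with 3.26, Upk1b with 3.20, Lrrn4 with 2.77, Wt1 with 1.00 and Bnc1 with 0.399 FPKM. Upk3b exceeded Msln in 10 of 12 libraries and Lrrn4 exceeded Wt1 in 11 of 12, while Gpm6a exceeded Upk1b in 6 of 12, so these neighbours in the order were not separable. In all 12 libraries Wt1 lay above Bnc1.

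The question put by the design is whether stress of the dam changed gene expression in the ileum of the offspring. With the counts of each litter added up and the dam taken as the replicate, no marker differed between stressed and control dams (edgeR quasi-likelihood test, adjusted over 16749 genes, threshold 0.05). The share of all genes called was 0%, and 1.36% of all genes but 0 of 7 markers had an unadjusted p under 0.05; DESeq2 called no gene either. Upk3b averaged 28.1 ± 12.6 CPM over stressed dams and 23.1 ± 7.17 CPM over control dams (n = 3 each, ± SD), and the log2 fold change was 0.29 ± 0.37 (SE). Msln averaged 11.96 ± 4.28 CPM over stressed and 9.68 ± 2.08 CPM over control dams, a log2 fold change of 0.31 ± 0.29. The remaining log2 fold changes ran from 0.08 ± 0.48 for Bnc1 to 0.37 ± 0.28 for Wt1. All 7 were positive with a median of 0.15, against 51.3% positive and a median of 0.00 over all genes, but their SEs ran from 0.28 to 0.48 and the markers are not independent of each other. The sign rested on single dams: without stressed dam 2 the log2 fold change was negative for 5 markers (Upk3b -0.0086, Upk1b -0.090, Lrrn4 -0.17, Gpm6a -0.14 and Bnc1 -0.36), and without control dam 2 for Upk1b (-0.079), Gpm6a (-0.0083) and Bnc1 (-0.13). Gpm6a was also negative without stressed dam 1 (-0.015), and Bnc1 without control dam 1 (-0.052). The groups overlapped for every marker, while 5.71% of all genes did not overlap between 3 stressed and 3 control dams.

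In males the fitted differences and their errors were both larger than over dams. Upk3b averaged 24.8 ± 19.1 CPM in stressed and 12.5 ± 17.5 CPM in control males (n = 3 each, ± SD), with a log2 fold change of 1.01 ± 0.91 (SE) and an adjusted p of 0.821. Lrrn4 averaged 9.02 ± 6.47 CPM in stressed and 3.86 ± 4.999 CPM in control males, with a log2 fold change of 1.26 ± 0.83 and an adjusted p of 0.767. Msln averaged 8.63 ± 8.11 CPM in stressed and 4.52 ± 3.26 CPM in control males, with a log2 fold change of 0.95 ± 0.64 and an adjusted p of 0.770. The median over the 7 markers was 0.95, against 0.01 over all 16102 genes. Stressed males held 1 of the 3 low libraries and control males 2, and the groups overlapped for all 7 markers. No marker and 0% of all genes passed the threshold, 6.38% of all genes and no marker had an unadjusted p under 0.05, 5.67% of all genes did not overlap between the groups, and DESeq2 called none. Leaving out control male 3 moved the log2 fold change of Upk3b to 3.401 and that of Lrrn4 to 3.21, and leaving out stressed male 2 turned that of Msln to -0.14 and that of Upk1b to -0.41. Upk1b was also negative without control male 1 or control male 2 (-0.053 for each), with no marker called in any of these cases.

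In females no difference between stressed and control pups was called. The spread was estimated once from all 4 groups, so the SEs for males and for females are not each sex's own. The markers' coefficient of variation was 15.8% to 27.0% in females, against 58.8% to 104% in males, so this estimate holds the wider male spread. Upk3b averaged 30.5 ± 8.32 CPM in stressed and 32.02 ± 3.59 CPM in control females (n = 3 each, ± SD), and its log2 fold change was -0.07 ± 0.88 (SE). Lrrn4 had the largest difference, with 10.3 ± 3.59 CPM in stressed and 13.0 ± 1.91 CPM in control females and a log2 fold change of -0.33 ± 0.78. Of the 7 fold changes 3 were positive, and every adjusted p was 1 (edgeR quasi-likelihood test). No gene was called (0%), by DESeq2 neither, and 0.298% of all genes but no marker had an unadjusted p under 0.05, while 5.56% did not overlap between the groups. The difference between the stress effects in males and in females was tested directly. It was positive in log2 for 7 of 7 markers, with a median of 0.87 and the largest value in Lrrn4 (1.60 ± 1.14), but the adjusted p was 0.999 for each, 0% of all genes passed by edgeR or DESeq2, and 2.15% of all genes but no marker had an unadjusted p under 0.05. Without stressed male 2 this difference was -0.21 for Msln and -0.39 for Upk1b, and that of Upk1b was also negative without control male 1 (-0.061) or control male 2 (-0.040). Without control male 3 that of Lrrn4 was 3.54, with no marker called in any of these cases.

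**Figure D2:**
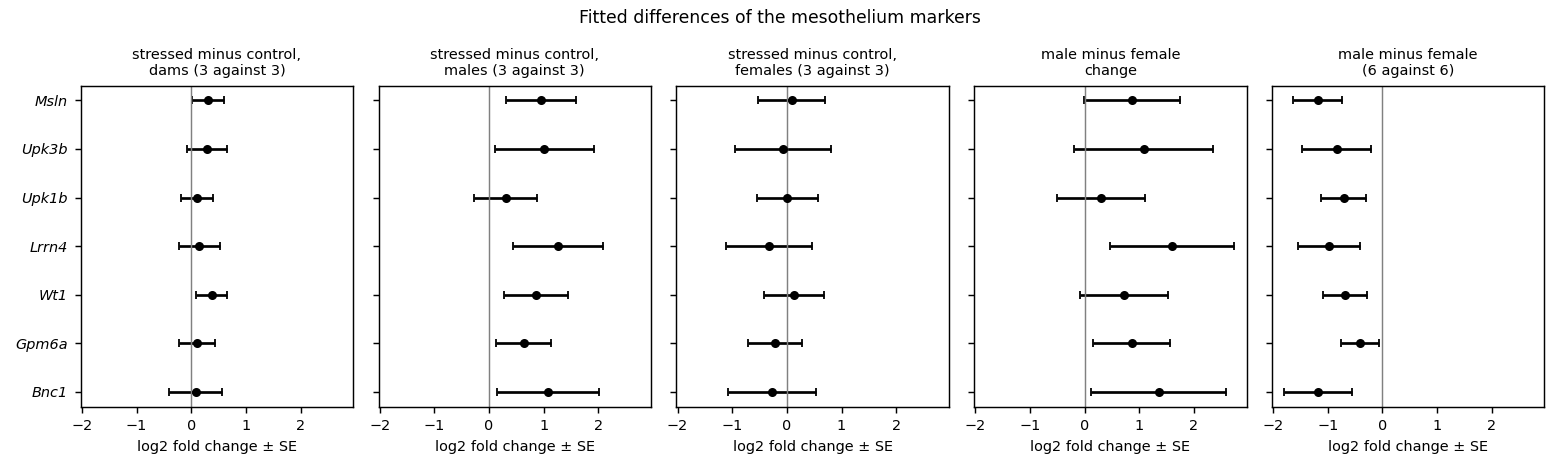
Fitted log2 fold changes of the 7 markers with their SE (edgeR), from left to right for stress over dams, stress in males, stress in females, the male minus the female stress effect, and males against females. The males' values reach 1.26 with SEs of up to 0.93, the females' lie between -0.33 and 0.13, and all 7 values of the last panel are negative.

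Males as a whole had lower fitted levels than females for 7 of 7 markers, with a median log2 fold change of -0.84 against -0.00 over all genes, and none passed the threshold. This fit took littermates as independent, so its SEs and p-values ignore their pairing. The fit with the litter as a block is given at the end. Msln averaged 6.57 ± 5.97 CPM in males and 14.2 ± 2.91 CPM in females (n = 6 each, ± SD), and its log2 fold change was -1.18 ± 0.44 (SE), with an unadjusted p of 0.0212 and an adjusted p of 0.411 in edgeR's quasi-likelihood test. It was lower in the male in 5 of 6 litters, all but that of stressed dam 2. Bnc1 (-1.18 ± 0.62) and Lrrn4 (-0.98 ± 0.57) were also lower in the male of 5 of 6 litters, Upk3b (-0.84 ± 0.64), Upk1b (-0.71 ± 0.40) and Wt1 (-0.69 ± 0.40) in 4 of 6, and Gpm6a (-0.41 ± 0.35) in 3 of 6. Over all genes 0.0497% were called between the sexes (8 of 16102), 12% had an unadjusted p under 0.05, as did 1 of 7 markers, and 0.255% did not overlap, against none of the markers. Without stressed male 2, the male with the highest Msln, the log2 fold change of Msln was -1.70 with an adjusted p of 0.0356, but 1384 genes then passed. Without control male 3, the only control male outside the 3 low libraries, the log2 fold change was -2.03 for Upk3b and -1.95 for Lrrn4, and no marker was called. The low libraries are all male, and leaving out 1 of them made these differences smaller. Without control male 2 the log2 fold change was -0.58 for Upk3b and -0.43 for Wt1, and without stressed male 3 it was -0.23 for Gpm6a.

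In the authors' deposited table, which compares stressed with control pups in males, in females and over both, the lowest adjusted p of any marker was 0.9996 over 21 values. There the log2 fold change of Msln was 0.30 in males and 0.04 in females. The fitted value in males given above was 0.95. The headers do not say how the deposited values were computed, so the sizes cannot be compared directly.

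The markers were high and low in the same libraries. On log2 CPM the Pearson correlation between 2 markers over the 12 libraries had a median of 0.926 over 21 pairs, with a range of 0.777 to 0.992, and the median Spearman correlation was 0.769. These are descriptions without p-values, since littermates share a dam and all markers of a library share its depth and tissue piece. Upk3b and Lrrn4 made the closest pair, and Msln and Wt1 the loosest. Much of this rests on the 3 low libraries. Over the 9 other libraries the median was 0.561 (0.0876 to 0.851), and over the 6 females, none of which was low, it was 0.593 (0.0856 to 0.939). The Pearson correlation was positive for all 21 pairs in both cases, but the Spearman correlation was not: its median was 0.467 (-0.0167 to 0.700) over the 9 libraries and 0.257 (-0.257 to 0.829) over the 6 females. Without the 2 libraries farthest from the median, control males 1 and 2, the median was 0.891. In the 9 libraries Upk3b and Lrrn4 kept a correlation of 0.851, Lrrn4 and Gpm6a 0.842 and Msln and Upk1b 0.760, whereas Msln and Gpm6a had 0.0876. Against the mean standardised level of the other markers, Bnc1 had the highest correlation (0.990), then Upk3b (0.987), Lrrn4 (0.980), Upk1b (0.956), Gpm6a (0.941), Msln (0.921) and Wt1 (0.865).

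**Figure D3:**
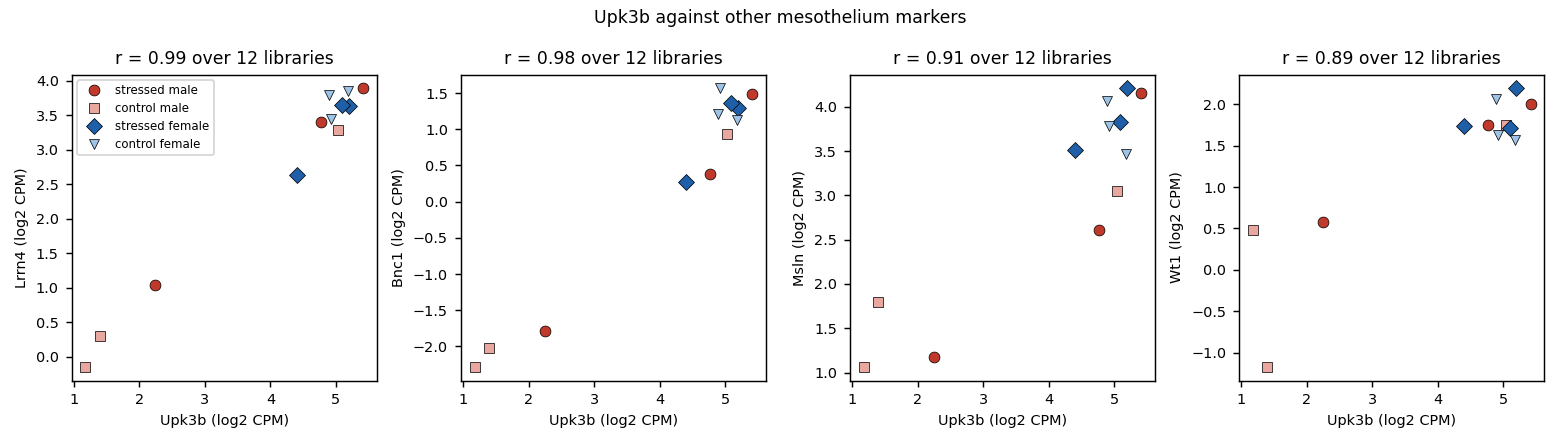
Lrrn4, Bnc1, Msln and Wt1 against Upk3b, each as log2 CPM, with 1 point per library in 4 groups. The 3 low males form the lower left cloud in each panel and the other 9 libraries the upper right one, and the pooled r of each panel (0.99, 0.98, 0.91 and 0.89) spans both clouds.

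Other genes were then ranked by their Pearson correlation with the mean standardised level of the 7 markers, among 14512 genes averaging 1 CPM or more. Across them the median correlation was 0.04, and 62 (0.427%) exceeded 0.8. Among the 10 most alike were Igfbp6 (0.965), Aebp1 (0.954), the noncoding RNA Gm26809 (0.953), Fmo2 (0.947), Rspo1 (0.943), Slpi (0.921), Itm2a (0.907), Sema3d (0.905) and Fmod (0.905). Igfbp6 encodes an IGF binding protein, Aebp1 a matrix protein and Slpi a secreted protease inhibitor. Igfbp6 had 9.97, 28.3 and 3.11 CPM in stressed males 1 to 3, against 3.67, 1.34 and 22.4 CPM in control males 1 to 3. Stressed females had 23.8, 18.4 and 13.0 CPM, against 17.7, 18.5 and 23.6 CPM in control females. The 3 low libraries of the markers were thus the 3 lowest for Igfbp6 too. Over the 9 other libraries its correlation was 0.851, that of Aebp1 0.812, of Slpi 0.813 and of Rspo1 0.713, while that of Sema3d was 0.228.

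Further genes known from mesothelium were followed as a list of 16. Of the 15 tested, 13 correlated positively with the markers (median 0.57, range -0.64 to 0.94), and over the 9 other libraries the median was 0.25. Rspo1, a secreted activator of WNT signalling made by mesothelium, was closest (0.943). It had 4.48, 5.35 and 2.41 CPM in stressed males, against 1.13, 0.939 and 3.90 CPM in control males. It had 5.77, 3.88 and 3.27 CPM in stressed females, against 5.14, 3.73 and 4.12 CPM in control females, so the 3 lowest libraries were again those of the markers. Efemp1, a matrix protein, correlated at 0.873 and Pkhd1l1 at 0.756, and over the 9 other libraries at 0.795 and 0.382. Krt18 (-0.64) and Anxa8 (-0.34) correlated negatively. Efemp1, Pkhd1l1, Krt18 and Anxa8 were named after their values were seen. Krt8 (0.34) and Krt19 (0.55), keratins that the epithelium also expresses and the most abundant genes of the list, dominated its sum, which ran from 2731 to 2867 CPM in stressed males and from 2012 to 3599 CPM in control males. It was 2638 to 2733 CPM in stressed females and 2638 to 2908 CPM in control females. Muc16, with 110 counts in all, was below the filter of the 4-group fit and has no correlation here.

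**Figure D4:**
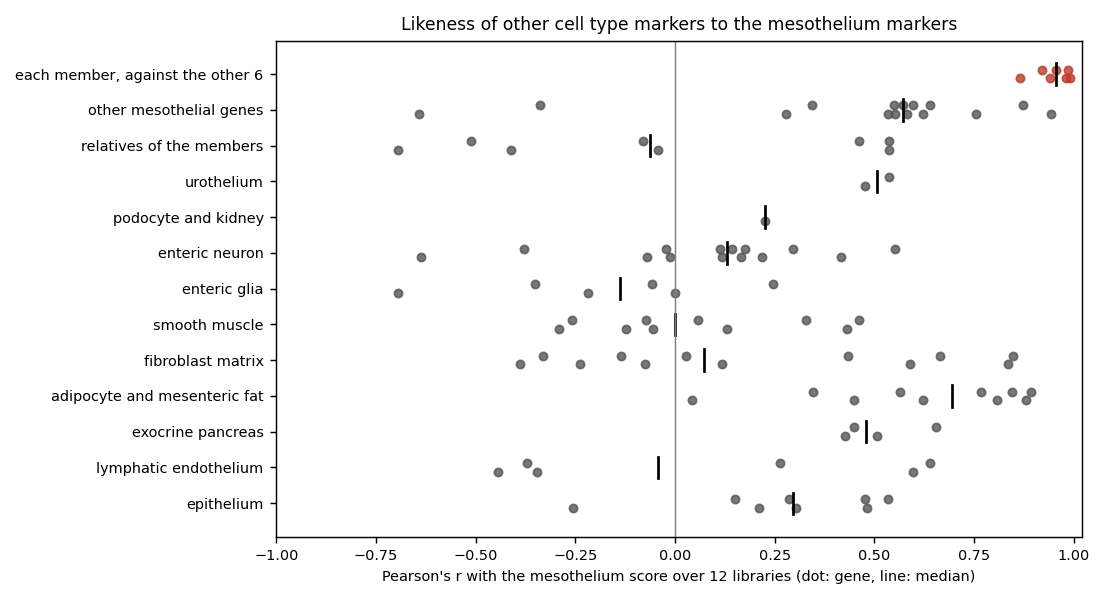
Pearson correlation of each tested gene with the mesothelium score (mean standardised log2 CPM of the markers) over 12 libraries. The top row holds the markers, each against the score of the other markers only, and the rows under it hold the other gene lists. A dot is a gene and a black line the list's median. Fat genes have the highest median of the other lists (0.69), and smooth muscle lies at 0.00.

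Several markers are also known from other tissues, and genes that define bladder lining and kidney were measured beside them. Of the uroplakins of bladder, Upk2 had 1 count over all 12 libraries and Upk3a had 76, Upk1a averaged 0.474 CPM, and Krt5 had 46 counts and Psca 9. The list's sum, 49.7 to 116 CPM in stressed males, 27.2 to 546 CPM in control males, 58.7 to 95.1 CPM in stressed females and 77.8 to 201 CPM in control females, was nearly all Krt20, a keratin of gut epithelium. For kidney, where podocytes use Wt1, Umod was at 0, Nphs1 had 2 counts, Pax2 had 1 and Pax8 averaged 1.12 CPM with a highest value of 2.54 CPM. Enteric neuron genes had a median correlation with the score of the 7 markers of 0.13 over 14 genes, with Ret at -0.64 and Stmn2 at 0.29, and the part of neurons in the level of Gpm6a was not tested. Enteric glia had a median of -0.14 over 6 genes, with Erbb3 at 0.25. Among relatives of the markers the median was -0.06 over 8 tested genes, with Lrrn1 at -0.41, Gpm6b at -0.51 and Bnc2 at -0.08. Of these 8 genes 3 correlated positively, namely Upk1a (0.54), Lrrn3 (0.54) and Lrrn4cl (0.46), named after their values were seen. Over the 9 libraries outside the 3 low ones Lrrn4cl had 0.83, Upk1a 0.30 and Lrrn3 0.00.

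Fat genes varied with the markers. All 10 adipocyte genes correlated positively (median 0.69, and 0.59 over the 9 other libraries), and 4 exceeded 0.8, namely Plin1 (0.893), Adipoq (0.881), Cfd (0.846) and Retn (0.808), all named after their values were seen. The 2 most abundant genes of the list, Lpl and Fabp4, which other cells also express, had 0.04 and 0.62. Adipoq, the fat cell hormone adiponectin, had 3.42, 24.1 and 2.41 CPM in stressed males 1 to 3, against 0.270, 0.148 and 8.91 CPM in control males 1 to 3. It had 17.4, 10.6 and 2.72 CPM in stressed females, against 2.51, 14.6 and 17.1 CPM in control females. Control males 1 and 2 were far below the rest, with 5 and 3 counts, and stressed male 3 followed, close to control female 1, whose markers were not low. The list summed to 240 to 526 CPM in stressed males, 174 to 332 CPM in control males, 234 to 422 CPM in stressed females and 211 to 416 CPM in control females, and of its genes Lep was at 0 in stressed male 3 and stressed female 3. The part of attached mesentery or fat in the markers' levels was not tested.

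**Figure D5:**
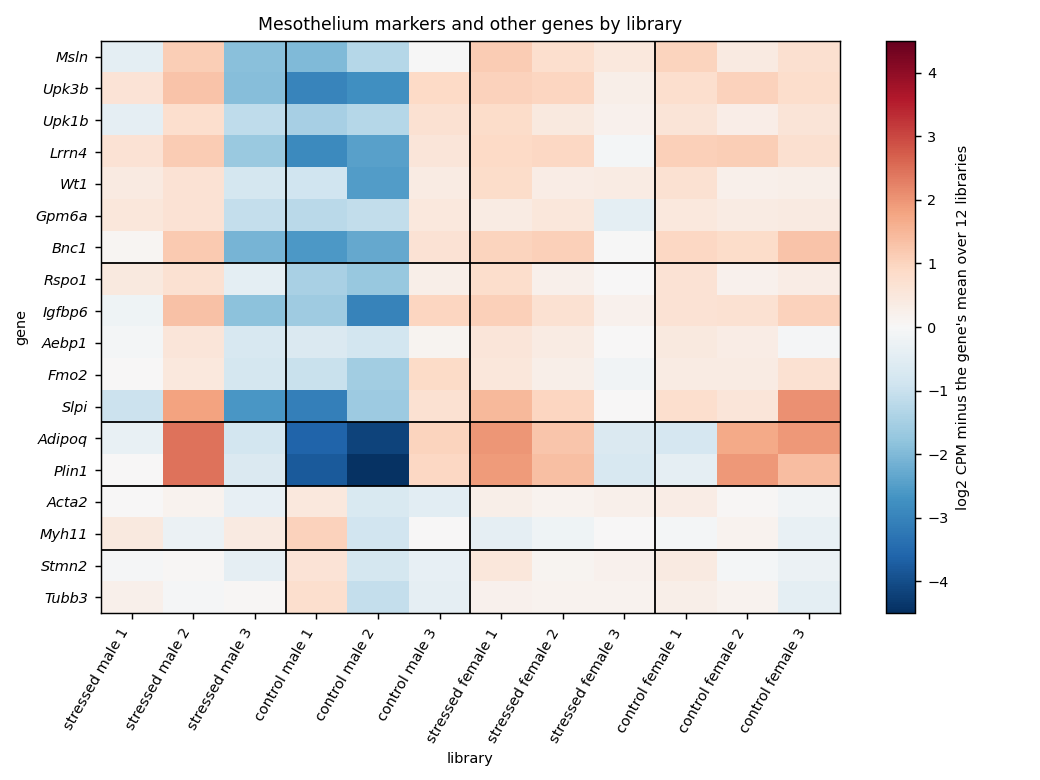
Log2 CPM minus each gene's mean over 12 libraries (colour), with libraries in columns (stressed male, control male, stressed female and control female, dams 1 to 3) and, from the top, the 7 markers, 5 of the genes most like them, 2 fat genes, 2 smooth muscle genes and 2 neuronal genes. The markers, Igfbp6, Slpi and the fat genes are blue in control males 1 and 2, whereas the muscle genes Acta2 and Myh11 and the neuronal genes Stmn2 and Tubb3 are above their means in control male 1 and at their lowest of the 12 libraries in control male 2 (814, 774, 16.5 and 7.71 CPM).

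The remaining lists had median correlations between -0.04 and 0.48 with the markers over the 12 libraries. Over the 9 libraries outside the 3 low ones the median was -0.30 for fibroblast matrix and 0.18 for exocrine pancreas. It was 0.03 for smooth muscle, -0.15 for lymphatic endothelium and 0.29 for gut epithelium there. Smooth muscle, the layer under the serosa, had a median correlation of 0.00 over 10 genes in the 12 libraries, with Mylk at -0.12. Myh11, its heavy myosin, had 1899, 1189 and 1865 CPM in stressed males and 2934, 774 and 1448 CPM in control males, so that the low library control male 1 had the highest value and the low library control male 2 the lowest. Fibroblast matrix genes had a median of 0.07 over 12 genes, with Col3a1 at 0.43 and Col1a1 at -0.33, although Pi16 (0.849) and Mfap5 (0.835), known from fibroblasts of adventitia and serosa and named after their values were seen, were close to the markers. Lymphatic endothelium had -0.04 over 6 genes, with Flt4 at -0.35 and Lyve1 at 0.60, and gut epithelium 0.29 over 8, with Lgals4 at 0.53 and Epcam at 0.15. For exocrine pancreas 4 of 10 genes were tested, with a median of 0.48, Clps at 0.65 and Cela1 at 0.51, while Cela2a, Cpa1, Pnlip, Prss2 and Try4 were at 0. No gene of any list passed the threshold in any comparison by edgeR. These markers' part in the level of the mesothelium markers was not tested.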

How the data were processed

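RNA of 12 ileal libraries (4 groups of 3) was sequenced. The deposited table of counts holds raw read counts per gene, and the deposited FPKM table holds FPKM, which for all 240813 nonzero counts matched count over gene length and library size (tolerance 1e-06). The authors' table of comparisons gives log2 fold changes with raw and adjusted p-values, as its headers name them, and its 36 per-sample columns were not used. Per the submitters' processing notes, the tools included STAR 2.5 and TopHat, HTSeq 0.6.1, edgeR 3.16.5 and DESeq2, and the builds were mm10 and GRCm38.

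Counts were tested with edgeR 4.0.16 under R 4.3.3 (F test by quasi-likelihood, TMM, filterByExpr defaults, Benjamini and Hochberg adjustment over all tested genes, threshold 0.05). A 4-group fit with 8 residual degrees of freedom covered 16102 genes. It held no litter block, also for the difference between the sexes' stress effects. For stress over dams the counts of littermates were summed (3 against 3 dams, 16749 genes). Correlations used log2 CPM with a prior count of 2. The fits were tested on simulated data.

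The markers and all gene lists were chosen with earlier results of these data known. Named were the 7 markers, the 2 most abundant genes of each list, list genes past the threshold (none) and the 10 genes of at least 1 CPM most correlated with the markers. Other genes, such as Bnc2, Acta2 and Tubb3, were named outside this rule with their values known, also where the text does not say so. Some genes that the rule names are not reported here. Alternatives were DESeq2 1.42.0, other scaling, no filter, each library left out, control dam 3 left out, a block and 12 pups with sex as a covariate. The block was the replicate number for stress over dams, in males and in females. For males against females and for the difference between the sexes' stress effects it was the litter.

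The labels give littermates the same dam, so the number pairs males with females and not stressed with control dams. Deviations from the group means correlated at -0.362 to 0.545 between 6 pairs of littermates and at -0.539 to 0.306 between 12 pairs of the same number from the other condition. No 2 libraries of a group were copies (chi-square per degree of freedom 8.17 to 177). With 1 pup of each sex per dam, the males of a condition come from 3 separate dams, and its females from the same 3 dams.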

Additional observations from a re-analysis of the deposited data

How the results depend on the processing

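Of 595 recomputed fold changes of the 7 markers, 1 passed the threshold (Msln in males against females without stressed male 2) and 31 changed sign, all in comparisons of stress, where no marker was called. In stressed against control females Upk1b turned to -0.0039 in log2 without the filter on low counts. With 1 library left out, the number of genes called ran from 0 to 1 in stressed against control males and from 8 to 1384 in males against females (without stressed male 2), where the number of markers called ran from 0 to 1 and Msln from -1.70 to -0.96. In stressed against control males Msln ran from -0.14 to 1.69 and Upk1b from -0.41 to 1.39, and the difference between the sexes' effects ran from -0.21 to 1.60 for Msln and from -0.39 to 1.38 for Upk1b. In stressed against control females the ranges were -0.12 to 0.24 for Msln, -0.23 to 0.15 for Upk3b, -0.19 to 0.14 for Upk1b, -0.060 to 0.27 for Wt1, -0.43 to 0.028 for Gpm6a and -0.49 to 0.021 for Bnc1. Over dams they were -0.0086 to 0.61 for Upk3b, -0.090 to 0.41 for Upk1b, -0.17 to 0.50 for Lrrn4, -0.14 to 0.41 for Gpm6a and -0.36 to 0.48 for Bnc1. Between the sexes DESeq2 called 18 genes and the fit without the 3 libraries richest in Yam1, added after seeing the data, called 5, against 8. The median correlation between markers was 0.593 in the 6 females and 0.561 in the 9 libraries outside the 3 low ones, both added after seeing the data, and 0.915 to 0.957 with 1 library left out. The cause of these changes was not tested.

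In males against females the block was the litter, so littermates were compared. With it the log2 fold change of Upk3b was -1.58 against -0.84 without it, and that of Msln was -1.47 (edgeR quasi-likelihood test, adjusted p 0.459). With the block 6 genes were called between the sexes, and 0 markers were called in any comparison. In the comparisons of stress within a sex and over dams the block was the replicate number, which does not pair stressed with control dams, and it changed no call. Depth limits Bnc1, which had 2 or 3 counts in the low libraries, most.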
